A study of Homo sapiens with 4 samples.

Results

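A549 and H441 are established human cell lines labelled as lung cancer, and the comparison described here is between their control cultures. The members are the 2 arrays titled A549 siNTC and H441 siNTC, out of 4 arrays in the series, and they were chosen by their titles alone. Both cultures had been transfected with the siRNA labelled siNTC by a lipid reagent, and total RNA was taken 48 h later. The other 2 arrays are the same lines with an siRNA labelled siTAZ, and they serve here only to see whether a difference between the lines was found again. Each combination of line and siRNA was hybridised once, so no group has a replicate, no p-value is given, and every difference is between 1 array and 1 array. No untransfected culture is included, and each line derives from 1 tumour, so the values describe these lines and not lung adenocarcinoma in general.

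Lung adenocarcinoma arises in the distal airway and alveoli, where type II cells make surfactant and club cells secrete protective proteins, both under the lineage factor NKX2-1. Cells of this origin can keep an epithelial programme of cadherin, claudins and apical membrane proteins, or take on mesenchymal features. A549, long used as a type II cell model, is known to carry inactivating changes of KEAP1, the adaptor that marks the antioxidant factor NRF2 for destruction, as well as of STK11, SMARCA4 and CDKN2A. H441 (NCI-H441) is known for making surfactant proteins and for forming tight polarised layers. This is background and was not measured on these arrays.

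The unit throughout is the authors' log2 RMA signal of a probe set, a value that compresses differences of dim probe sets, so that folds of genes dim in 1 line are understated. A gene entered the counts if at least one siNTC array reached 6.13, the table's median signal; 12354 of 18377 genes did. Of the genes counted, 897 were at least 2-fold higher in A549 (7.26%) and 2232 were at least 2-fold higher in H441 (18.1%), and at 4-fold the numbers were 344 (2.78%) and 487 (3.94%). This lean to H441 depended on the scale of the arrays: the medians of the siNTC arrays were 6.05 in A549 and 6.17 in H441, and the median difference over the genes counted was -0.31, a 1.24-fold lower signal in A549. After quantile normalization of the 4 arrays that median was 0.011, and 1321 of 12420 genes (10.6%) were at least 2-fold higher in A549 against 1276 (10.3%) in H441. Folds below are of the deposited values, and the normalized value is given where it changes the call or direction of a named gene. List counts given without a normalized count can change by a few members after quantile normalization.

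**Figure D1:**
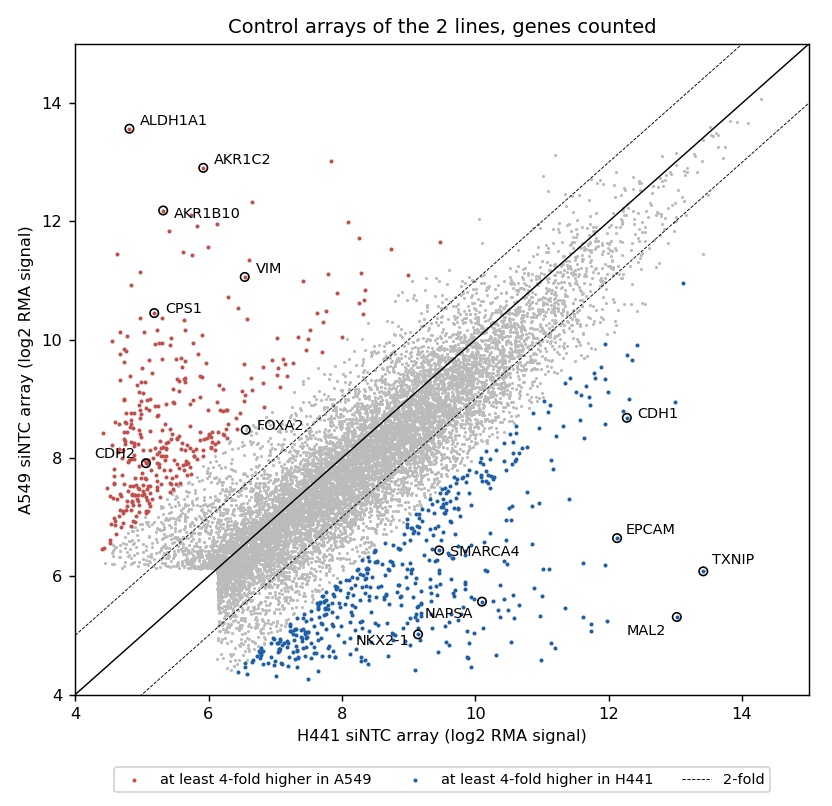
Signal of each gene counted on the A549 siNTC array (vertical axis, log2) against the H441 siNTC array (horizontal axis, log2), 1 point per gene. Red and blue points are the 344 and 487 genes at least 4-fold higher in A549 and in H441, the solid line marks equal signal and the dashed lines a 2-fold difference. Genes such as ALDH1A1 and MAL2 lie far from the line, and the grey cloud lies a little below it, by the median of -0.31.

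The line differences were found again on the siTAZ arrays, which share no array with the siNTC pair. All 897 genes at least 2-fold higher in A549 with siNTC and all 2232 higher in H441 had the same sign with siTAZ. On the siTAZ arrays 929 genes were at least 2-fold higher in A549 (7.39% of 12578 counted) and 2026 in H441 (16.1%). Called in both pairs were 778 for A549, 86.7% of the siNTC genes and 83.7% of the siTAZ genes, and 1768 for H441, 79.2% and 87.3%. Across the 12354 genes counted, which are not independent replicates, the siNTC and siTAZ line differences correlated at Pearson r = 0.970. Within a line the siNTC and siTAZ arrays differed far less: 99% of genes moved by under 0.78 in A549 and 0.63 in H441, a spread that holds array error and the siRNA's effect together. The line difference was larger than 0.78 for 4381 genes, 35.5% of those counted, or 3641 genes (29.3%) after quantile normalization. Among the genes called at 2-fold, SERPINE2, a secreted protease inhibitor, shrank most between the pairs, from a difference of 3.80 with siNTC to 2.43 with siTAZ. SLC2A3, a glucose transporter, went from 2.85 to 1.63, and NT5E, an ectonucleotidase, from -2.84 to -1.69.

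**Figure D2:**
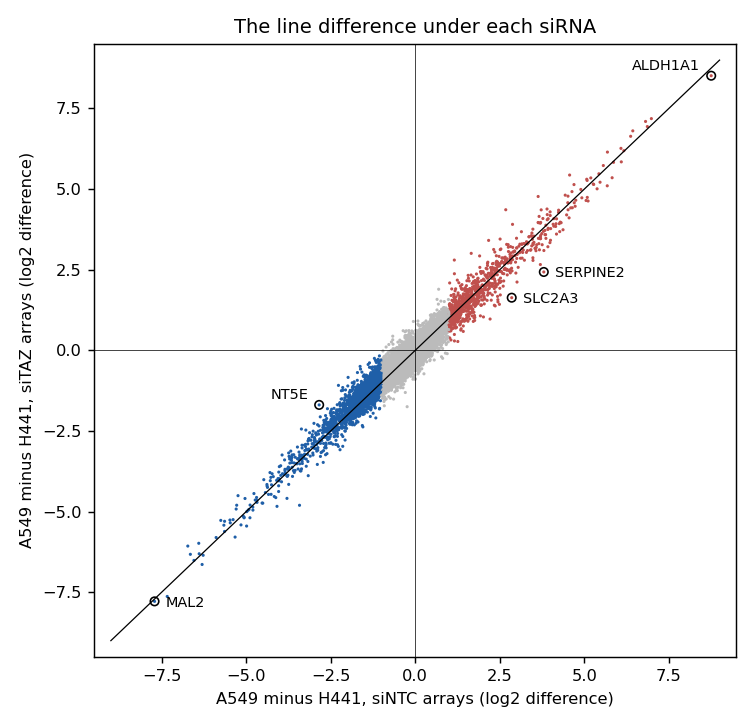
A549 minus H441 log2 difference on the siTAZ arrays (vertical axis) against the same difference on the siNTC arrays (horizontal axis), 1 point per gene counted. Red and blue points are the genes at least 2-fold higher in A549 and in H441 with siNTC, and none of them crosses the horizontal line at 0. The solid line marks equal differences, and SERPINE2, SLC2A3 and NT5E lie nearer to 0 with siTAZ.

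ALDH1A1, a retinal dehydrogenase much used as a stem-like cell marker, had signals of 13.57 and 13.39 in A549 and 4.81 and 4.88 in H441, given here and below as siNTC then siTAZ. It was 432-fold higher in A549 and its H441 signal lay far below the table median. MAL2, a membrane protein of apical transport, had the opposite pattern, 5.31 and 5.20 in A549 and 13.02 and 12.99 in H441, and was 209-fold higher in H441. TXNIP, the thioredoxin-interacting protein induced by glucose, followed with 6.08 and 5.74 in A549 and 13.42 and 13.37 in H441, 161-fold higher in H441.

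Behind ALDH1A1, the 20 genes most in favour of A549 held 6 of the NRF2 target list described below. They also held CNTN1, a neuronal adhesion protein (112-fold higher in A549), CA12, a carbonic anhydrase (82.8-fold), SPP1, osteopontin (72.0-fold) and the neutrophil chemokine CXCL5 (68.4-fold). KYNU, kynureninase of tryptophan breakdown, was 67.9-fold higher, UCHL1, a deubiquitinase, 51.4-fold, CYP24A1, which inactivates vitamin D, 51.2-fold and the hyaluronan receptor CD44 47.3-fold. Further members were the RNA-binding protein BICC1 (44.2-fold), the kidney injury marker HAVCR1 (43.2-fold) and the granule proteoglycan SRGN (41.6-fold).

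Behind MAL2 and TXNIP, the 20 genes most in favour of H441 held 4 more of the epithelial junction list, to which MAL2 belongs. The others included the long non-coding RNA UCA1 (106-fold higher in H441), ARHGDIB (100.4-fold), the adhesion receptor ADGRF1 (84.5-fold) and the metalloreductase STEAP4 (83.8-fold). TMEM45B was 78.9-fold higher, the secreted lipid mobiliser AZGP1 77.2-fold, the retinoic acid carrier CRABP2 59.2-fold and MACC1, which acts upstream of MET, 49.8-fold. TDRD1, a Tudor domain protein of germ cells, was 44.3-fold higher and GALNT3, which starts mucin-type glycosylation, 38.8-fold.

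By a rule set on signal levels, 54 genes were high in A549 and dim in H441, and 28 the reverse. High means at or above the 75th percentile of the table (7.97) and dim below the 25th (4.98). A gene that meets both cuts must also have a large fold on the same arrays. These sets are therefore not independent of the fold ranking above. After quantile normalization the counts were 62 and 22, and on the siTAZ arrays 46 and 25, of which 39 and 20 were among the siNTC genes. ALDH1A1, CNTN1, SPP1, KYNU, BICC1, HAVCR1, SRGN and FGA were in the A549 set, and ADGRF1, STEAP4, AZGP1, RAB25, MACC1, GALNT3 and TDRD1 in the H441 set.

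Lung lineage genes favoured H441. NKX2-1, the homeodomain factor of lung and surfactant genes, had signals of 5.02 and 5.01 in A549 and 9.14 and 9.57 in H441 and was 17.4-fold higher in H441. On both A549 arrays it lay below the table median. The signal of a single marker does not decide a line's tissue of origin. NAPSA, the aspartic protease that processes surfactant protein B and a diagnostic marker of lung adenocarcinoma, read 5.57 and 5.67 in A549 and 10.10 and 10.40 in H441 and was 23.1-fold higher in H441.

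In the list of surfactant and alveolar genes, 20 of 22 measured members were counted, and 9 were at least 2-fold higher in H441 against 0 in A549, with a list median of -0.94 beside the -0.31 of all genes counted. The numbers were the same after quantile normalization and on the siTAZ arrays, where 19 were counted. A member dim in both lines is not counted, and one that is counted through a single line had to favour that line, here and in the lists below. List counts therefore describe the members and are set beside the shares of all genes, 7.26% and 18.1%. SLC34A2, the phosphate transporter of type II cells, was 31.7-fold higher in H441, and SFTPB, surfactant protein B, 3.36-fold, with signals of 5.66 and 5.83 in A549 and 7.42 and 8.09 in H441. LPCAT1, which makes surfactant lipid, was 3.07-fold higher and the lamellar body protein LAMP3 2.98-fold. The list also holds genes of alveolar type I cells, which did not move as one. The water channel AQP4, the factor HOPX and caveolin 1, CAV1, were 7.42-fold, 4.12-fold and 5.75-fold higher in H441. AGER and the water channel AQP5 differed by -0.45 and 0.35, under 2-fold, and AQP5 by -0.059 on the siTAZ arrays. SFTPC had a difference of 0.52 and the lamellar body transporter ABCA3 0.61, under 2-fold and towards A549, and these and AGER and AQP5 were named after their values were seen. SFTPA1 and SFTPA2 have no probe set with a single symbol and were not analysed here.

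The wider set of lung and endoderm transcription factors did not lean one way. Of 29 counted members, 3 were at least 2-fold higher in A549 and 5 in H441, or 4 and 3 after quantile normalization, with a list median of -0.041, or 0.26 after quantile normalization. FOXA1 and FOXA2, paralogous pioneer factors of lung endoderm, went opposite ways. FOXA1 read 7.48 and 7.56 in A549 and 9.50 and 9.66 in H441 and was 4.03-fold higher in H441, whereas FOXA2 read 8.48 and 8.72 in A549 and 6.56 and 6.92 in H441 and was 3.78-fold higher in A549. TBX3, a T-box repressor, was 5.06-fold higher in A549, and HNF4G, a nuclear receptor of gut and liver, 3.77-fold higher in H441. EHF and KLF4, epithelial factors, were 2.13-fold and 2.27-fold higher in H441, or 1.82-fold and 1.85-fold after quantile normalization.

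Membrane mucins leaned to H441, while club cell secretoglobins were dim or differed little. Of 31 measured club cell and mucin genes, 17 were counted, 10 at least 2-fold higher in H441 and 1 in A549. After quantile normalization the numbers were 9 and 2 of 18, and on the siTAZ arrays 8 and 2. The median was -1.49, or -1.04 after quantile normalization and -0.61 on the siTAZ arrays. At or above the table median were 10 measured members in A549 and 15 in H441. Members that passed the filter through H441 alone had their direction fixed by it. MUC1, the transmembrane mucin of glandular epithelium, read 6.23 and 6.64 in A549 and 11.62 and 11.89 in H441. It was 41.8-fold higher in H441, and so were MUC21 (29.6-fold), MUC20 (12.5-fold) and MUC4 (6.69-fold), all membrane mucins. MUC13, also a membrane mucin and one of gut epithelium, went the other way and was 6.17-fold higher in A549. The secreted mucin MUC5B differed by 0.87 towards A549, or 1.05 after quantile normalization. Other members were higher in H441, with the mucosal chemokine CXCL17 at 9.73-fold, the iron-scavenging lipocalin LCN2 at 4.97-fold and the adhesion antigen CEACAM5 at 4.92-fold. SCGB3A2 and SCGB1A1, secretoglobins of club cells, were below the table median on all 4 arrays, with SCGB3A2 at 5.12 and 5.20 in A549 and 5.42 and 5.38 in H441. SCGB3A1 was counted and differed by -0.17, or 0.021 after quantile normalization. MUC5B and the secretoglobins SCGB1A1 and SCGB3A1 were named after their values were seen.

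The epithelial programme was the list with most members in favour of H441. Of 41 counted junction and epithelial regulator genes, 32 were at least 2-fold higher in H441, 21 of them at least 4-fold, and 1 was at least 2-fold higher in A549. After quantile normalization the numbers were 30 and 2, and on the siTAZ arrays 31 and 2. The list median was -2.20, beside -0.31 over all genes counted. CDH1, E-cadherin of adherens junctions, read 8.68 and 8.96 in A549 and 12.27 and 12.20 in H441, so it was present well above the table median in both lines and 12.1-fold higher in H441. EPCAM, the epithelial adhesion molecule, read 6.65 in A549 and 12.13 in H441 with siNTC and was 44.6-fold higher. CDH3, P-cadherin, was below the table median in A549 and 93.3-fold higher in H441.

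The same direction was seen in each part of the junction, though not in every member. Among tight junction proteins, CLDN7 was 29.5-fold and CLDN4 13.6-fold higher in H441, while CLDN2, a pore-forming claudin, was 2.78-fold higher in A549. CLDN1, CLDN23 and TJP1 differed by -0.13, 0.19 and -1.11, or 0.30, 0.47 and -0.68 after quantile normalization. Among desmosome and plaque proteins, DSC2 was 10.2-fold and PKP2 5.84-fold higher in H441. DSP and JUP differed by -0.64 and -0.59, or -0.22 and -0.15 after quantile normalization. CD24, another member of the list, differed by 0.90, or 1.33 after quantile normalization. The apical serine protease cascade was represented by matriptase, ST14 (49.8-fold), its partner PRSS8 (27.9-fold) and its inhibitor SPINT1 (16.3-fold). RAB25, an epithelial recycling GTPase, was 50.5-fold higher. Regulators of the epithelial state had it too, with GRHL2, a grainyhead factor, at 15.8-fold and ESRP2, an epithelial splicing regulator, at 12.5-fold. DSC2, PKP2, CLDN2, CLDN4, GRHL2 and ESRP2 fall outside the rule for naming and were picked after their values were seen. The same holds for CLDN1, CLDN23, TJP1, DSP, JUP and CD24.

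Upstream sequences of 3 such genes show the E-box CAGGTG, reverse complement CACCTG, a motif that repressors of the ZEB and SNAI families are known to bind at epithelial genes. They have the largest differences among list members at least 2-fold higher in H441 with a start in the RefSeq table and the motif in the stretch before it. Each stretch is the 250 bases before the gene's start in RefSeq, build GRCh38.p14, 5′ to 3′ on the gene's strand, with the motif in capitals.
RAB25 (chr1:156060910-156061159, plus strand): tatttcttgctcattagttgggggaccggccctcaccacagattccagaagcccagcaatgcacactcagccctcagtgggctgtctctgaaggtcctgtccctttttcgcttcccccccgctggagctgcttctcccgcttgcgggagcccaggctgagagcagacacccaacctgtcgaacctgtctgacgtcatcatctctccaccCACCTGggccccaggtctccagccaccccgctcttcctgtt
CLDN7 (chr17:7262479-7262728, minus strand, one of 2 starts in the table): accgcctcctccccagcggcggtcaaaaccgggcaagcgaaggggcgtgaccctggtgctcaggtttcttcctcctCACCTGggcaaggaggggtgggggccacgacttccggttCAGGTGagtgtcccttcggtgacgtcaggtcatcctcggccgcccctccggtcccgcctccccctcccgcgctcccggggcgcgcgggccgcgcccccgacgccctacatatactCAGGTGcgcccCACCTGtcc
SPINT1 (chr15:40844227-40844476, plus strand, one of 2 starts in the table): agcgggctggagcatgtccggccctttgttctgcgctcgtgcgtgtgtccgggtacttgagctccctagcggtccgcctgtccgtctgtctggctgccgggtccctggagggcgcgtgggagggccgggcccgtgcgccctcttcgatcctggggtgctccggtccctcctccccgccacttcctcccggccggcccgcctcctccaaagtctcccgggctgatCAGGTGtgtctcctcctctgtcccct
CLDN7 held 4 matches and the other two 1 each. Of 32 members at least 2-fold higher in H441, 16 have a start in the table. Their 23 starts held the motif in 9 (39.1%), against 6143 of all 35116 starts (17.5%) and 2371 of the 14344 starts of genes counted (16.5%). All counted junction genes, whether or not they differed, held it in 13 of 33 starts (39.4%), a like share. A match is a run of letters and not a shown binding site.

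Keratins varied by type. Of 11 counted keratins, 5 were at least 2-fold higher in H441 and 0 in A549, and the median was -0.84. KRT19 of simple and ductal epithelium read 8.95 and 8.66 in A549 and 12.99 and 12.85 in H441, 16.4-fold higher in H441, and KRT4 of mucosal lining was 8.81-fold higher. KRT7, the keratin used to mark lung adenocarcinoma, was high in both lines (11.84 and 11.59 in A549 and 12.97 and 12.56 in H441), 2.19-fold higher in H441 or 1.69-fold after quantile normalization. KRT8 and KRT18, the basic pair of simple epithelia, had differences of only -0.064 and -0.18, or 0.13 and 0.0066 after quantile normalization, and were picked after their values were seen.

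**Figure D3:**
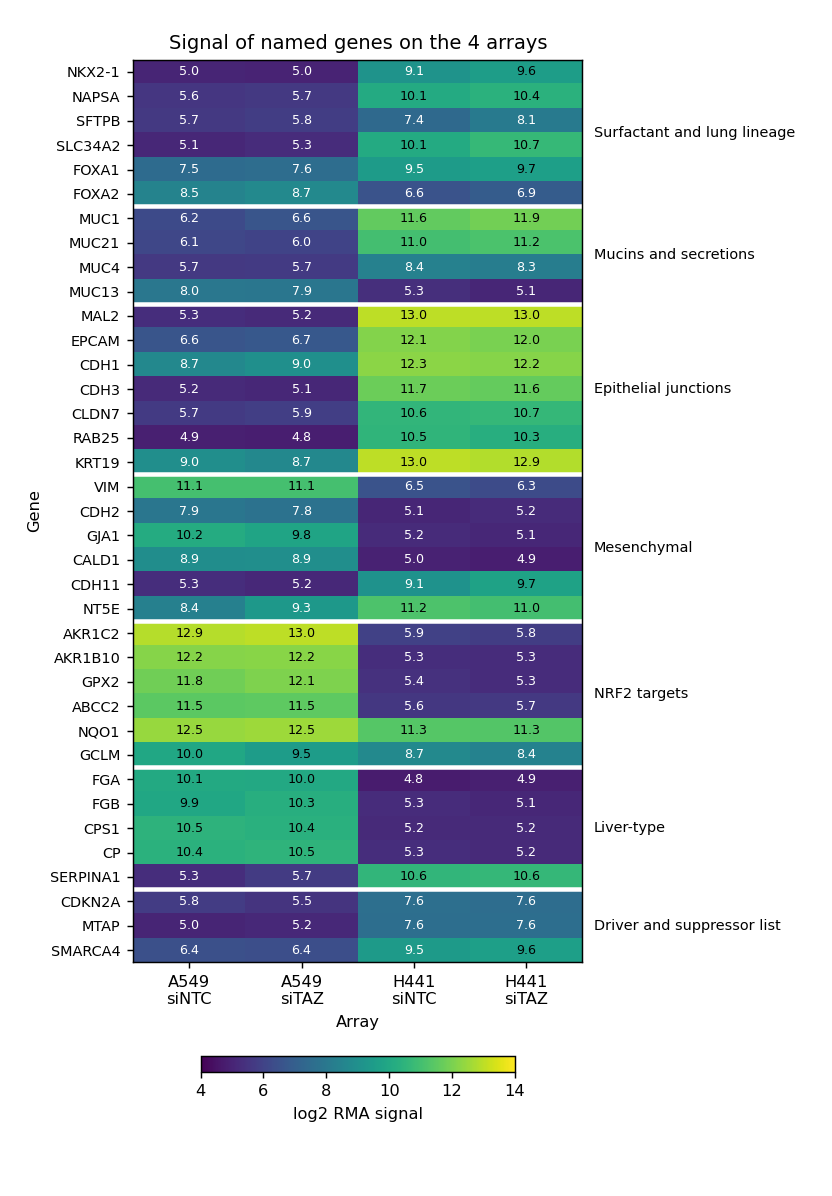
Log2 signal of 37 named genes (rows, grouped by list) on each of the 4 arrays (columns), with the value printed in each cell and shown by colour. In every row the 2 arrays of a line differ by less than the lines do, and rows change colour between the lines, as for MAL2, which is below the table median of 6.13 on both A549 arrays and far above it on both H441 arrays.

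Mesenchymal genes leaned to A549 with clear exceptions. Of 25 counted members, 12 were at least 2-fold higher in A549 and 4 in H441, or 15 and 3 of 26 after quantile normalization, and the median was 0.87. VIM, the intermediate filament vimentin, read 11.06 and 11.07 in A549 and 6.54 and 6.29 in H441 and was 22.9-fold higher in A549. CDH2, N-cadherin, read 7.91 and 7.78 in A549 and 5.06 and 5.23 in H441, 7.21-fold higher, and lay below the table median in H441. GJA1, connexin 43, was 30.4-fold higher, CALD1, caldesmon of actin filaments, 15.3-fold and FSTL1, a secreted glycoprotein, 7.36-fold, and SERPINE2, above, had the same direction. Against this direction, CDH11, a cadherin of mesenchyme, read 5.31 and 5.16 in A549 and 9.10 and 9.75 in H441 and was 13.9-fold higher in H441, and NT5E was 7.16-fold higher there. Repressors of epithelial genes were divided by member. SNAI2 was 4.14-fold higher in H441 and SNAI1 differed by -0.75, whereas ZEB1 differed by 0.85, or 1.02 after quantile normalization, which is just over 2-fold. SNAI1 and SNAI2 were named after their values were seen.

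Matrix genes divided by isoform. LAMB1 and LAMB3, beta chains of different laminins, were opposite: LAMB1 read 10.72 and 10.93 in A549 and 6.29 and 6.11 in H441 and LAMB3, the chain of epithelial laminin, 6.19 and 6.42 in A549 and 11.94 and 11.69 in H441. They were 21.6-fold higher in A549 and 53.8-fold higher in H441. Over the 19 counted integrins and laminins, 5 were at least 2-fold higher in A549 and 6 in H441, or 7 and 5 after quantile normalization, with a median of -0.12, or 0.26 after quantile normalization. The integrin chains ITGB2, usual in leukocytes, and ITGB6, usual in epithelium, were 15.7-fold and 10.2-fold higher in H441, and ITGB3 4.19-fold higher in A549.

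Collagens had 5 of 18 counted members at least 2-fold higher in A549 and 1 in H441, with a median of 0.32. COL5A2 was 26.5-fold higher in A549, and the paired basement membrane chains COL4A1 and COL4A2 5.44-fold and 5.22-fold. COL6A2 was the H441 exception at 2.72-fold. In the matrix protease list, which includes inhibitors, 11 of 26 counted were at least 2-fold higher in H441 and 5 in A549. After quantile normalization these numbers were 11 and 6 of 27, and the median of -0.37 became 0.0049. MMP9, a gelatinase, read 5.67 and 5.54 on the A549 arrays and MMP14, a membrane-bound collagenase, 5.43 and 5.56, and they were 40.1-fold and 33.4-fold higher in H441. The plasminogen activators PLAT and PLAU were 10.7-fold and 7.37-fold higher in H441, and TMPRSS4, a membrane serine protease, 14.3-fold. MMP7, matrilysin, was 14.6-fold higher in A549.

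NRF2 target genes leaned to A549. NRF2, encoded by NFE2L2, switches on genes of glutathione synthesis, NADPH supply and carbonyl reduction. Of 45 counted targets, 19 were at least 2-fold higher in A549, 12 of them at least 4-fold, and 1, ETFDH, was at least 2-fold higher in H441 (2.06-fold, 1.57-fold after quantile normalization). After quantile normalization the numbers were 28 and 0, and on the siTAZ arrays 22 and 0. The list median was 0.86.

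The aldo-keto reductases, which reduce carbonyls and steroids, were the extreme. AKR1C2 read 12.91 and 13.01 in A549 and 5.92 and 5.82 in H441, AKR1B10 12.18 and 12.23 in A549 and 5.32 and 5.29 in H441 and AKR1C3 13.02 and 13.01 in A549 and 7.83 and 7.66 in H441. They were 127-fold, 117-fold and 36.6-fold higher in A549, and AKR1C1 3.91-fold. The AKR1C genes are near-identical copies whose transcripts can bind each other's probes, so the values of single AKR1C genes are uncertain. GPX2, a glutathione peroxidase, was 86.5-fold higher, the conjugate exporter ABCC2 58.3-fold and ALDH3A1 56.6-fold.

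Other targets differed less. NQO1, the quinone reductase, read 12.46 and 12.53 in A549 and 11.35 and 11.31 in H441, 2.16-fold higher in A549. GCLM, the regulatory subunit of glutathione synthesis, was 2.39-fold higher, PGD of the pentose phosphate pathway 3.81-fold, heme oxygenase HMOX1 5.15-fold, PTGR1 7.16-fold and CES1 6.52-fold. SLC7A11, the cystine transporter, and TXNRD1, thioredoxin reductase, had differences of -0.68 and -0.60, under 2-fold and below 0. HMOX1, GCLM, ETFDH, SLC7A11 and TXNRD1 were named after their values were seen. The regulators did not follow the targets: NFE2L2 was 2.43-fold higher in H441 (1.80-fold after quantile normalization), KEAP1 differed by 0.053, and of 8 counted regulators 3 were at least 2-fold higher in H441, or 1 after quantile normalization, and 0 in A549.

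The core of the antioxidant response element, TGACNNNGC or GCNNNGTCA on the other strand, is the sequence that NRF2 with a small MAF partner is known to bind. It is shown for the 3 genes with the largest difference among targets at least 2-fold higher in A549 whose 250 upstream bases hold it, from RefSeq build GRCh38.p14, 5′ to 3′ on the gene's strand, with the match in capitals.
GPX2 (chr14:64942746-64942995, minus strand): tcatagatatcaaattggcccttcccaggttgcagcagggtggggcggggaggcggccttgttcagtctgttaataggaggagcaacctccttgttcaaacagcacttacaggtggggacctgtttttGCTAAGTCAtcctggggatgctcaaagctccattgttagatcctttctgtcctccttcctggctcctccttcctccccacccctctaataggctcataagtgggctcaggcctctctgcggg
PGD (chr1:10398814-10399063, plus strand): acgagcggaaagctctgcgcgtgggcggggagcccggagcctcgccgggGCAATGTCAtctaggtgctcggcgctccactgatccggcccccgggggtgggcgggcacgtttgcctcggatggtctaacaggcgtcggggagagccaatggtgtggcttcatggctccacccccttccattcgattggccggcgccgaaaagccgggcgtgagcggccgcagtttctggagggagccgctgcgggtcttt
GCLM (chr1:93909431-93909680, minus strand): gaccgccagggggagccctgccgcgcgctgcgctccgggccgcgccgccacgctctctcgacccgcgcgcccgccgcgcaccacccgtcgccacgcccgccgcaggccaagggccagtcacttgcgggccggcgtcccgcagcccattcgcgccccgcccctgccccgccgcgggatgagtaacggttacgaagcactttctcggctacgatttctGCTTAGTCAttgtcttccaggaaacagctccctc
Each stretch held 1 match, beginning 122, 201 and 34 bases before the start. Of the 19 targets at least 2-fold higher in A549, 12 have a start in the table, and 4 of their 13 starts (30.8%) held the core. The shares were 12 of the 44 starts of all counted targets (27.3%), 3830 of all 35116 starts (10.9%) and 1697 of the 14344 starts of genes counted (11.8%). The stretch upstream of the AKR1C1, AKR1C2 and ABCC2 starts held no match to these letters.

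Aldehyde dehydrogenases were divided by member. Of 15 counted, 3 were at least 2-fold higher in A549 and 2 in H441, with a median of 0.28. ALDH1A1 and ALDH3A1, above, and ALDH1L2, of mitochondrial folate metabolism (3.60-fold), were the A549 members. ALDH1A3, the paralog of ALDH1A1 that also makes retinoic acid, read 7.65 and 7.15 in A549 and 9.73 and 9.32 in H441 and was 4.24-fold higher in H441, but its other probe set differed by only -0.58. ALDH5A1 was 2.66-fold higher in H441.

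Counted genes best known from liver leaned to A549, in part through the filter. Of 48 measured, 26 were counted, 16 at least 2-fold higher in A549 and 3 in H441, or 17 and 2 after quantile normalization. The median of counted members was 1.88. At or above the table median were 21 measured members in A549 and 10 in H441. Most counted members thus passed the filter through A549 alone, and for these the direction was fixed by the filter. The fibrinogen chains FGA and FGB were 38.8-fold and 25.9-fold higher in A549, with FGA at 10.06 and 10.02 in A549 and 4.78 and 4.88 in H441. CPS1, the mitochondrial enzyme that opens the urea cycle, was 38.4-fold higher, ceruloplasmin CP 33.6-fold, HGD of tyrosine breakdown 15.9-fold, FGL1 12.7-fold and TM4SF4 12.4-fold. SERPINA1, alpha-1 antitrypsin, had the reverse pattern, 5.29 and 5.72 in A549 and 10.59 and 10.64 in H441, and was 39.3-fold higher in H441. Defining hepatocyte products were not part of this: ALB and AFP lay below the table median on all 4 arrays (4.72 and 4.66 in A549 and 4.80 and 4.97 in H441 for ALB and 4.68 and 4.83 in A549 and 4.46 and 4.63 in H441 for AFP), and both were named after their values were seen.

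HOX genes, which keep positional identity, had 8 of 17 counted members at least 2-fold higher in A549 and 0 in H441, out of 27 measured. On the siTAZ arrays the numbers were 6 and 0 of 18, and the siNTC median was 0.94. HOXB6 read 7.54 and 7.27 in A549 and 5.02 and 5.55 in H441 and HOXB7 7.38 and 7.41 in A549 and 4.90 and 4.95 in H441, 5.72-fold and 5.58-fold higher in A549, and HOXC9 was 2.87-fold higher. At or above the table median were 16 measured HOX genes in A549 and 4 in H441. Most counted members thus passed the filter through A549 alone, and for these the direction was fixed by the filter. HOXC9, at 6.54 with siNTC in A549, and HOXB5, at 6.33, lay near the cut of 6.13. Of the cancer-testis genes, 4 of 21 measured were counted; PRAME was 17.1-fold higher in A549 and DDX43, a helicase, 7.90-fold higher in H441.

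**Figure D4:**
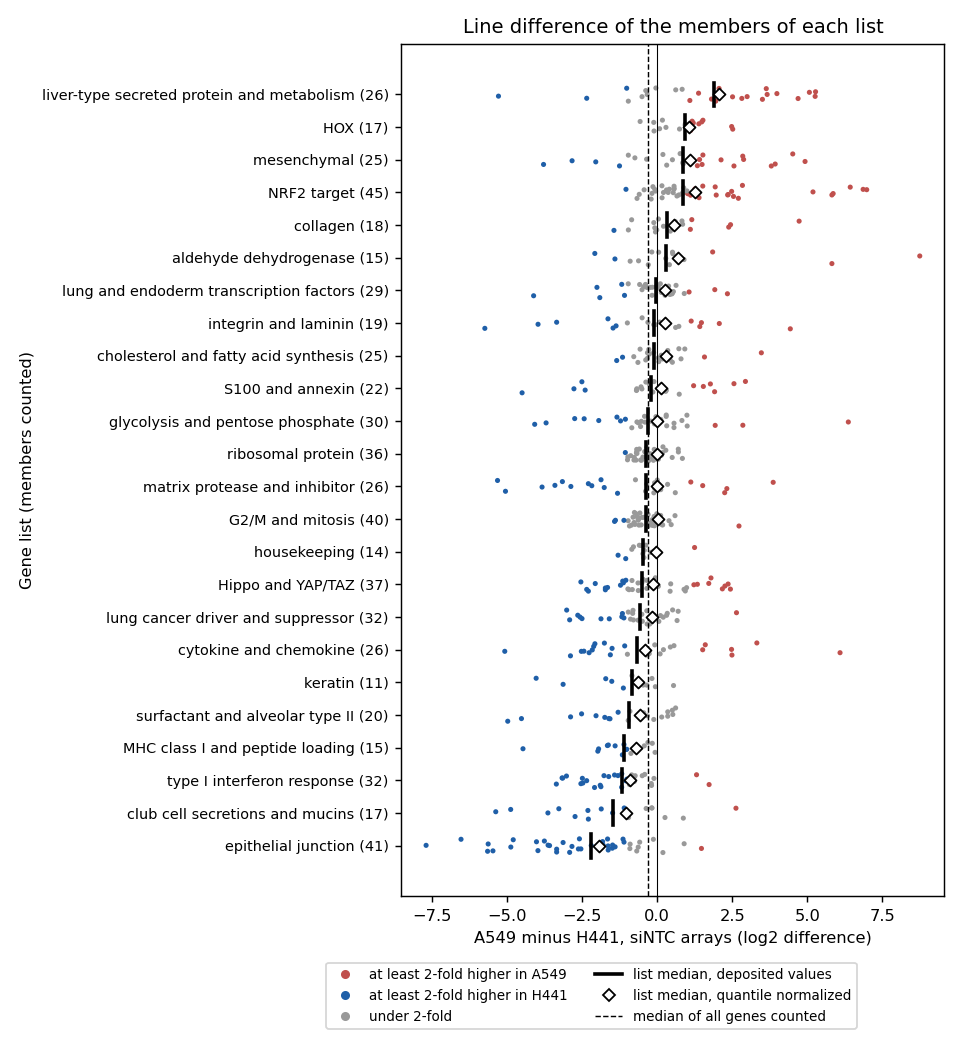
A549 minus H441 log2 difference (horizontal axis) of each counted member of 24 lists with at least 10 counted members (rows, number in brackets). Bars are list medians of the deposited values, diamonds the medians after quantile normalization, and the dashed line the median of all genes counted, -0.31. By the medians of counted members, epithelial junction genes lie farthest to the H441 side and liver-type genes farthest to the A549 side. At or above the table median in A549 and H441 were 23 and 40 measured junction genes and 21 and 10 liver-type genes. The filter fixed the direction of members counted through a single line.

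Among driver and suppressor genes, 10 of 32 counted were at least 2-fold higher in H441 and 1 in A549, or 7 and 2 after quantile normalization, and the median was -0.58. SMARCA4, the chromatin remodelling ATPase BRG1, read 6.44 and 6.39 in A549 and 9.46 and 9.63 in H441 and was 8.12-fold higher in H441. CDKN2A, which encodes p16 and ARF, read 5.77 and 5.49 in A549 and 7.64 and 7.57 in H441. It was below the table median on both A549 arrays and 3.67-fold higher in H441. Its neighbours MTAP, a purine salvage enzyme, and CDKN2B, which encodes p15, were 5.96-fold and 3.03-fold higher in H441, with MTAP at 5.04 and 5.17 in A549 and 7.62 and 7.62 in H441. STK11 differed by -0.35, or 0.06 after quantile normalization. The receptors MET and ERBB3 were 5.70-fold and 7.58-fold higher in H441. DUSP6 and DUSP4, phosphatases induced by ERK signalling, were opposite, DUSP6 6.28-fold higher in H441 and DUSP4 6.24-fold higher in A549.

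The low A549 signal was seen in adjacent genes. Going by the order in the GRCh38.p14 gene table on chromosome 9, the counted genes next to MTAP, CDKN2A and CDKN2B were MIR31HG, with 5.67-fold more signal in A549, and DMRTA1, with a difference of -0.29. A longer block was dim in H441 on chromosome 12; it was noticed in the data, and its genes are named for their values. PUS7L, TWF1, TMEM117, ANO6, ARID2 and SCAF11 follow one another there, with only PLEKHA8P1, a pseudogene, between TMEM117 and ANO6 among counted genes. TWF1, an actin-binding twinfilin, read 10.12 and 10.21 in A549 and 5.04 and 4.94 in H441, ANO6, a lipid scramblase, 9.32 and 9.14 in A549 and 4.67 and 4.72 in H441 and ARID2, a subunit of a SWI/SNF chromatin complex, 8.33 and 8.12 in A549 and 4.73 and 4.85 in H441. Their folds in favour of A549 were 33.9, 25.1 and 12.1, and for PUS7L, SCAF11 and TMEM117 8.01, 10.8 and 3.83. All 6 lay below the table median on both H441 arrays and above it on both A549 arrays. PLEKHA8P1 read 7.10 and 6.83 in A549 and 6.37 and 5.99 in H441. On one side the next counted gene, PRICKLE1, a planar polarity protein, was also under the median in H441 (5.95 and 5.77), and the 4 beyond it were above it in both lines, up to the next dim genes CNTN1, LRRK2 and SLC2A13. On the other side SLC38A1 and SLC38A2, amino acid transporters, were bright in both lines (11.31 and 10.97 in A549 and 11.71 and 11.59 in H441 for SLC38A1). They differed by -0.41 and -0.23, or 0.043 and 0.22 after quantile normalization. DNA was not measured, and loss of a region and low transcription of it cannot be told apart from these values.

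**Figure D5:**
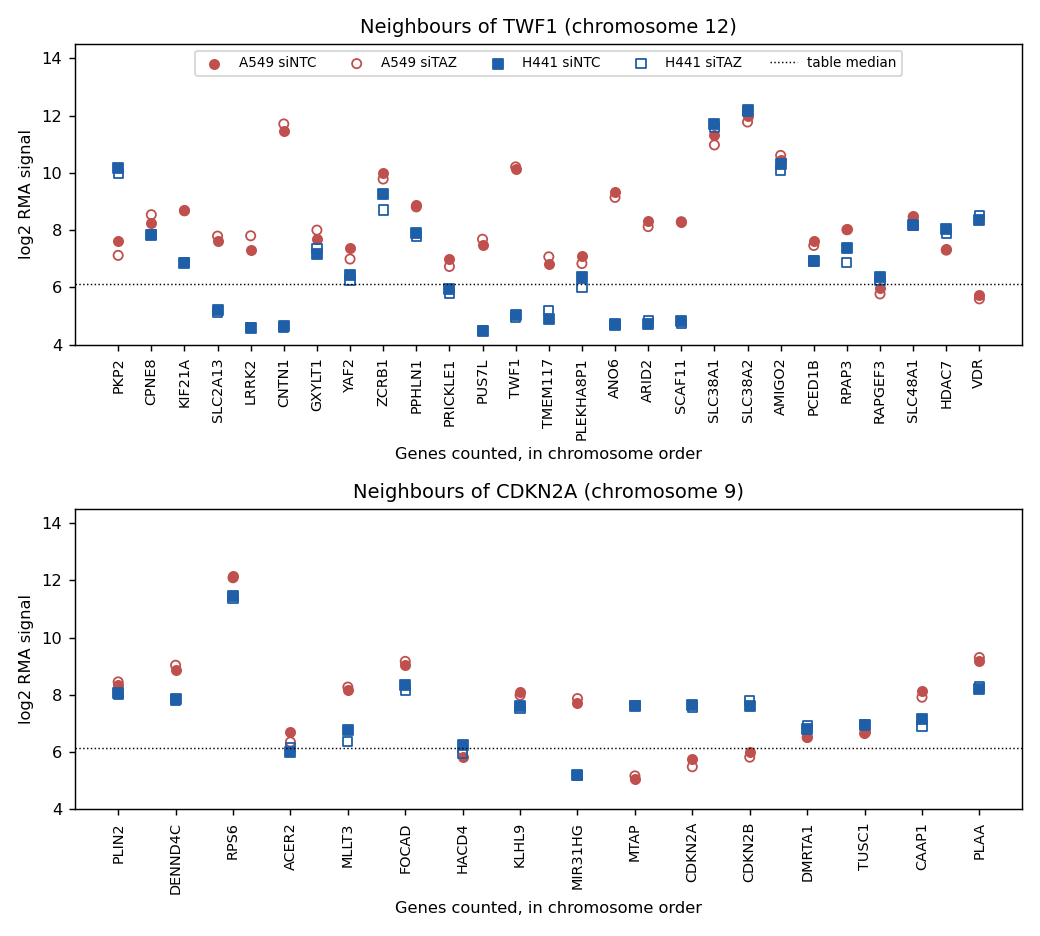
Log2 signal (vertical axis) of counted genes in chromosome order around TWF1 (upper) and CDKN2A (lower), with circles for A549 and squares for H441, filled for siNTC and open for siTAZ. The dotted line is the table median, 6.13. PUS7L, TWF1, TMEM117, ANO6, ARID2 and SCAF11 are under it in H441 alone, and MTAP, CDKN2A and CDKN2B in A549 alone.

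Antigen presentation and interferon genes leaned to H441. Of 32 counted interferon response genes, 19 were at least 2-fold higher in H441 and 2 in A549, or 15 and 2 after quantile normalization, with a median of -1.19. SAMD9, an antiviral factor, read 6.30 and 6.50 in A549 and 9.67 and 8.94 in H441, 10.3-fold higher in H441. BST2, tetherin, was 8.91-fold higher, IFITM3, which blocks virus entry, 8.16-fold, the RNA sensor IFIH1 5.65-fold and MX2 5.11-fold. The 2 exceptions at 2-fold were OAS1 (2.48-fold higher in A549) and HERC5 (3.31-fold), named after their values were seen.

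All 15 counted genes of class I loading had lower signals in A549, and 10 were at least 2-fold lower, which became 5 after quantile normalization, with 13 of the 15 still lower. The median was -1.11, or -0.70 after quantile normalization. ERAP2, an aminopeptidase that trims peptides, read 5.26 and 5.25 in A549 and 9.74 and 9.26 in H441, 22.3-fold higher in H441. B2M, the light chain of class I, was 3.10-fold higher and PSMB8, of the immunoproteasome, 3.88-fold. The class I heavy chain genes and CD74 and HLA-DRA have no single-symbol probe set and were not analysed here. In the class II list 6 of 13 measured genes were counted, and HLA-DMB, a peptide exchange chaperone chain, was the one that differed 2-fold, 9.35 and 9.66 in A549 and 5.64 and 6.10 in H441, 13.1-fold higher in A549. CIITA, the class II activator, was below the table median on 3 of the 4 arrays (5.74 and 5.79 in A549 and 5.97 and 6.24 in H441).

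Cytokine genes divided by member. Of 26 counted, 12 were at least 2-fold higher in H441 and 6 in A549, with a median of -0.66. ICAM1, the leukocyte adhesion ligand, read 5.80 and 6.08 in A549 and 10.88 and 11.22 in H441, 33.9-fold higher in H441, with IL23A at 7.44-fold, the NF-kB inhibitor TNFAIP3 at 5.78-fold and CCL28, a mucosal chemokine, at 5.45-fold. CXCL5, above, the prostaglandin synthase PTGS2 (9.99-fold), CXCL1 (5.62-fold) and CCL2 (5.57-fold) were higher in A549.

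Growth factor genes of the EGFR family were also split by ligand. HBEGF and TGFA, which bind EGFR, were 10.5-fold and 6.43-fold higher in H441. NRG1, a ligand of ERBB3 and ERBB4, was 15.2-fold higher in A549, at 8.76 and 8.26 in A549 and 4.84 and 5.05 in H441. NRG4, a ligand of ERBB4, was 4.81-fold higher in A549. ERBB3, a receptor of NRG1, had the opposite pattern. Of 7 counted ligands, 4 were at least 2-fold higher in H441, or 2 after quantile normalization, and 2 in A549; EREG and BTC were the ones that fell under 2-fold.

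WWTR1, the gene of TAZ that the siTAZ siRNA is named for, had close baseline signals of 10.04 in A549 and 9.61 in H441. Its paralog YAP1 was 2.34-fold higher in H441 (1.73-fold after quantile normalization). Of 37 counted Hippo and YAP/TAZ genes, 8 were at least 2-fold higher in A549 and 11 in H441, or 11 and 7 after quantile normalization, and the median was -0.50. The TEAD cofactors VGLL3 and VGLL1 were opposite, 4.78-fold higher in A549 and 4.19-fold higher in H441. CCN1, a matricellular target, was 5.85-fold higher in H441, and the Wnt antagonist DKK1 4.50-fold higher in A549.

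S100 and annexin genes, which encode calcium-binding proteins, had 6 of 22 counted members at least 2-fold higher in A549 and 4 in H441, with a median of -0.21, or 0.12 after quantile normalization. S100A14, of epithelia, was 22.7-fold higher in H441 and S100P 5.30-fold, whereas S100A4, linked to motility, was 5.89-fold and ANXA6 7.67-fold higher in A549.

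Genes of glycolysis and its hypoxia-linked neighbours were mixed. HK2, hexokinase 2, read 6.09 and 5.56 in A549 and 10.18 and 10.39 in H441, 17.0-fold higher in H441. ALDOC was 13.1-fold, PDK1 5.42-fold, VEGFA 6.74-fold and the glucose transporter SLC2A1 3.87-fold higher in H441, while the transporter SLC2A3 was 7.23-fold higher in A549. CA12 and PGD, above, also belong to this list and were 82.8-fold and 3.81-fold higher in A549. Of 30 counted members of this list, 8 were at least 2-fold higher in H441 and 3 in A549, or 5 and 7 after quantile normalization, where the median of -0.31 became 0.006. In lipid synthesis, FADS2 and FADS1, desaturases of polyunsaturated fatty acids, were 11.1-fold and 2.98-fold higher in A549, and of 25 counted members 2 were at least 2-fold higher in A549 and 2 in H441, or 5 and 0 after quantile normalization. That list's median was -0.12, or 0.29 after quantile normalization.

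Lists of general cell functions lay near the median of all genes. Mitosis genes had a median of -0.38 over 40 counted members, ribosomal protein genes -0.36 over 36 and housekeeping genes -0.47 over 14, beside -0.31 for all genes. After quantile normalization these medians were 0.039, 0.0019 and -0.05, so the sign of the first 2 changed with the scale of the arrays. CDC25B, a phosphatase that drives entry into mitosis, stood out among the mitosis genes at 6.61-fold higher in A549. The next largest, KIF2C, was 2.68-fold higher in H441.

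Markers of other cell types were mostly dim. At or above the table median on the siNTC arrays of A549 and H441 were 1 and 3 of 8 fibroblast markers, 1 and 2 of 8 endothelial, 2 and 1 of 8 leukocyte, and 2 and 2 of 8 ciliated cell markers. For squamous markers they were 2 and 3 of 7, and for neuroendocrine markers 5 and 1 of 8. LUM, a matrix proteoglycan, and KDR, a VEGF receptor, were 6.28-fold and 6.54-fold higher in H441. CD68, a lysosomal protein of macrophages, was above the median in both lines (8.61 and 8.63 in A549 and 10.41 and 10.34 in H441). CHGB, a granule protein, was 2.76-fold higher in A549. Both samples are cultures of an established line, so these values are given as signals of the lines and not as shares of other cell types.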

How the data were processed

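RMA signals on the log2 scale were deposited by the authors for each probe set, per the submitters' processing notes. The version of RMA is not given in the sources used here, nor is joint normalization of the 4 arrays. Values between 4.20 and 14.83 led to the choice of log2 as the scale. Biotin-labelled single-stranded cDNA was hybridised, per the labels' protocols. Of 28869 probe sets, 19310 had 1 gene symbol in the platform annotation, 1752 several and 7807 none. Symbols were updated by Entrez identifier through the GRCh38.p14 gene table, where 31 single-symbol probe sets found no match. Each of 685 genes with several probe sets is represented by its brightest one, by the mean of all arrays.

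The difference is A549 siNTC minus H441 siNTC, without a test, since there is 1 array per group. A 2-fold difference is 1 on the log2 scale. The number of arrays limits the precision of every value. The members, the 35 gene lists and the rule for naming genes were chosen with earlier results of these data known. The rule named the 20 genes per direction with the largest difference, the 8 counted members per list with the largest difference, and a short list of lineage and driver genes. Exceptions are marked in the text or are neighbours in gene order. Alternatives were quantile normalization, median centring and cyclic loess (limma 3.58.1 in R 4.3.3), other filters, the mean of probe sets and the siTAZ arrays. One of the lists is not reported here. The counting was tested on simulated data with known differences.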

Additional observations from a re-analysis of the deposited data

How the results depend on the processing

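The 2-fold count in H441, 2232, was 1276 after quantile normalization and 1268 after cyclic loess. The 2-fold count in A549, 897, was 462 under the stricter filter, which asks for the 75th percentile and tests fewer genes. The 28 genes high in H441 and dim in A549 were 16 after cyclic loess. The other 38 counts over these results and 7 alternatives stayed within 1.5 times the main count. The sign of 9 list medians changed with the scale of the arrays. After quantile normalization and after cyclic loess, in that order, the medians were 0.26 and 0.28 for lung and endoderm factors (0.074 after median centring), 0.039 and 0.055 for mitosis, 0.0019 and 0.0012 for ribosomal proteins, 0.26 and 0.27 for integrins and laminins, 0.0049 and 0.033 for matrix proteases, 0.12 and 0.10 for S100 and annexins, 0.006 and 0.033 for glycolysis, 0.29 and 0.30 for lipid synthesis and 0.20 and 0.19 for leukocyte markers. Without the filter, medians of the other sign were -0.032 for aldehyde dehydrogenases, 0.0498 for integrins and laminins and 0.022 for ciliated markers. With the siTAZ arrays they were -0.16 for cancer-testis genes and 0.31 for leukocyte markers. Of 214 named genes at least 2-fold different, 197 stayed so after quantile normalization, 208 after median centring, 196 after cyclic loess, 213 with the mean of probe sets and 201 on the siTAZ arrays, and none changed sign under these 5 alternatives. Among named genes with several probe sets, those of ALDH6A1 differed in sign and those of ALDH1A3 and EIF4A2 in whether they reached 2-fold. No paired test was run, since the siNTC and siTAZ pairs of lines differ in treatment and each group has 1 array. The siNTC and siTAZ pairs of lines are set side by side instead. With 1 array per group, array error cannot be separated from the difference of any single gene.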

Other observations

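Zinc finger genes on chromosome 19 had lower signals in A549 in runs of neighbours. The runs were sought after the chromosome 12 block had been seen, on quantile-normalized differences, as at least 4 consecutive counted genes that differ at least 2-fold the same way in the order of the GRCh38.p14 table. Over 12400 ordered genes there were 42 runs, 25 higher in A549 and 17 higher in H441, and 5 held at least 7 genes. On chromosome 19, 13 consecutive genes from ZNF610 to ZNF702P and 9 from ZNF506 to ZNF85 were higher in H441, with median differences of -2.34 and -2.38. ZNF626, a KRAB-type zinc finger gene in the second run, read 4.41 and 4.50 in A549 and 9.10 and 9.06 in H441 and ZNF83, in the first, 4.57 and 4.65 in A549 and 8.29 and 7.95 in H441. Of 176 counted ZNF genes on that chromosome, 68 were at least 2-fold higher in H441 and 2 in A549 after quantile normalization, and of 206 elsewhere 25 and 7, beside 10.3% and 10.6% of all genes. These genes are related in sequence, so probe sets can share signal between them, which was not tested.

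The longest run was on chromosome 20, where 14 consecutive genes from SMOX to CRLS1 were higher in A549, with a median quantile-normalized difference of 1.66. SMOX, spermine oxidase, differed by 3.58, and PCNA, the replication clamp, read 11.04 and 11.20 in A549 and 9.41 and 9.29 in H441. GPCPD1, of choline metabolism, read 9.30 and 9.10 in A549 and 7.41 and 7.19 in H441. The run mixes unrelated functions.

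Probe sets without a single gene symbol were counted in the same way. Of 1135 counted with several symbols, 47 were at least 2-fold higher in A549 and 178 in H441. Of 1680 counted with none, 70 and 169 were, with differences from -6.95 to 5.17. The shares of all genes counted were 7.26% and 18.1%, and neither group of probe sets exceeded them. None of these was named here. The zinc finger and chromosome 20 genes were named after their values were seen.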
